A study of Mus musculus with 16 samples.

Results

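The TRIM family was taken as every protein-coding gene of the deposited table whose symbol is Trim followed by a digit. This gave 67 genes among 21576 protein-coding rows, and 42 of the 67 were expressed highly enough to be tested. The members were divided into 16 genes known to be induced by interferon, of which 10 were tested, and 51 other genes, of which 32 were tested. RNA came from the lumbar dorsal root ganglia (DRG, levels L3 to L5) of C57BL/6 mice, sequenced from polyA-selected libraries. Every mouse, those of the vehicle group included, had received 20 µl of 2% carrageenan in a hind paw 6 days before, which gives lasting inflammatory pain. A single intrathecal injection then held 1 µg of a fusion protein of interleukin-4 and interleukin-10 (n = 6), 0.5 µg of each cytokine unlinked, here the combination (n = 5), or PBS as vehicle (n = 5), and ganglia were collected 6 hours afterwards. No group without inflammation was analysed here, so every difference is between treatments of inflamed animals. The labels do not say that each library is a separate animal, and the p-values then measure only the spread between these libraries.

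TRIM proteins carry a RING finger, one or more B-boxes and a coiled coil at the N-terminus, and most act as E3 ubiquitin ligases, which attach ubiquitin to a chosen target. The C-terminus differs between members and picks the target: a PRY-SPRY domain in most antiviral members, a COS box that binds microtubules in members of neurons and muscle, NHL repeats in others, and a PHD finger with a bromodomain in chromatin regulators. Interferons, released by infected or inflamed tissue, switch on many PRY-SPRY members, and these members block viruses and adjust the signal of RNA sensors. In neurons other members act on axon growth, microtubules and neurofilaments.

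The deposited values are variance-stabilised and on a log2 scale. They decode exactly to whole numbers, called scaled values here, which are not read counts: the depth of each library is unknown, so no counting interval is given. Differences are log2 differences of group means with the standard error (SE) of limma, and near the lowest value of the table they are smaller than the ratio of the scaled values. Scaled totals were 16.71 to 19.08 M in fusion protein, 18.19 to 20.88 M in combination and 17.23 to 18.73 M in vehicle libraries. All 7 neuron markers and all 7 markers of Schwann and satellite glia were present in the libraries, with summed scaled values of the neuron list of 125628 to 200684, 140218 to 175533 and 126347 to 164628 in fusion protein, combination and vehicle libraries. Fusion protein replicate 6 and combination replicates 2 and 3 stood apart from the other 13 libraries in a group of TRIM genes on chromosome 7. Fusion protein replicate 4 and vehicle replicate 4 lay in between in the ratios of Trim12a to Trim12c and of Trim30d to Trim30a. In Trim34b these replicates were level with the 3 libraries that stood apart. Results on Trim30a, Trim34a, Trim30d and Trim12a are given with all libraries and without those 3. A member was tested when its mean over the 16 libraries was at least 6.99 on the log2 scale, 1 above the lowest value of the table, which is a scaled value of 31.8. Just inside lay Trim47 at 7.08 and Trim10 at 7.10, and just outside lay Trim30b at 6.83 and Trim5 at 6.70.

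Levels per kilobase of exon spread widely within the family. Trim36, a COS-box protein that binds microtubules, was highest with a mean scaled value of 2007 per kilobase over all libraries. It was followed by Trim44, which lacks a RING finger, at 847 per kilobase and by Trim37, a ligase of centrosomes and chromatin, at 766 per kilobase. The strongest interferon-inducible member was Trim25 with 125 per kilobase, while Trim30a had 70.5, Trim21 71.6 and Trim12c 92.9 per kilobase. The lowest tested member was Trim7 with 8.47 per kilobase. At the other end, Trim42, Trim50, Trim52, Trim60 and Trim75 stayed at a scaled value of 1, that of undetected genes, in each of the 16 libraries. The cardiac and skeletal muscle members Trim54, Trim55 and Trim63, which bind the sarcomere, lay under the filter, with no library above 12.

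The promoters of the interferon-inducible members are shown because they hold a shared sequence that the choice of the list did not use. The interferon-stimulated response element (ISRE) is the DNA site of IRF factors, and its consensus was searched on both strands in windows from 250 bases before to 50 bases after each start site. It was present in at least 1 window of 7 of the 9 tested interferon-inducible members with a window (77.8%), in 1 of 23 other tested members with a window (4.35%), that of Trim2, and in 3.99% of the 27025 genes of the reference table. The matched members were Trim12a, Trim12c, Trim21, Trim26, Trim30a, Trim30d and Trim34a, while the windows of Trim25 and Trim56 held no match. The consensus of the interferon-gamma activated site (GAS) was in 0 of the same 9 members, in 2 of the 23 others (8.7%) and in 9.55% of all genes. A match is a run of letters; binding was not measured. The stretches given here run from 90 bases before to 30 bases after the start site, 5′ to 3′ on the strand of the gene (RefSeq, GRCm38.p6), for the 4 interferon-inducible members that passed the test in at least 1 comparison with an increase, and capitals mark the ISRE letters on either strand. In Trim21, 2 overlapping matches run together.
Trim30a: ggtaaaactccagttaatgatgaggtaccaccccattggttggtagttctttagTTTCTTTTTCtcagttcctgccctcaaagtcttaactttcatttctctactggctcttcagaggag
Trim21: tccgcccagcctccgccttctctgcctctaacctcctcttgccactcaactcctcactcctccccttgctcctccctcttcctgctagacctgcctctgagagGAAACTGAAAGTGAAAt
Trim34a: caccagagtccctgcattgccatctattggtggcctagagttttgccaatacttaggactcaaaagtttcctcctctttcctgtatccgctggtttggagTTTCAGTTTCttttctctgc
Trim12c: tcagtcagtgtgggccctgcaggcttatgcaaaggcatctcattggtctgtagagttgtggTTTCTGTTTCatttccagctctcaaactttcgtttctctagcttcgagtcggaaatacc

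These lines lie at chr7:104465164-104465283 on the minus strand for Trim30a, chr7:102565453-102565572 on the minus strand for Trim21, chr7:104244367-104244486 on the plus strand for Trim34a and chr7:104353320-104353439 on the minus strand for Trim12c. The matched 10 letters of Trim30a, TTTCTTTTTC, also stand in the window of Trim30d, and those of Trim12c, TTTCTGTTTC, in the windows of Trim12a and of the untested Trim5. These genes are neighbours and copies of one another, so their sequences are not independent.

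The first comparison asks which TRIM genes the fusion protein changed against vehicle. Of the 42 tested members 1 rose and 6 fell, 16.7% in all, while 12% of all 13385 tested genes rose and 13.7% fell (25.8% in all). The member that rose was the interferon-inducible Trim30a, and all 6 that fell belonged to the other members: Trim67, Trim9, Trim33, Trim8, Trim65 and Trim7. The median difference was 0.32 over the 10 interferon-inducible members, with 8 above 0, and -0.11 over the 32 other members, with 7 above 0, beside -0.02 over all tested genes. The count of increases was 4 when vehicle replicate 4, fusion protein replicate 5 or fusion protein replicate 6 was left out, and the count of decreases was 3 without vehicle replicate 4. In bulk tissue a smaller number of cells of a type and less RNA per cell cannot be told apart.

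Trim30a (GRCm38 chromosome 7, 104409025 to 104465193, minus strand) encodes a ligase of mouse macrophages that restrains Toll-like receptor signalling. Its scaled values were 1314, 476, 455, 476, 342 and 231 in fusion protein libraries, against 155, 209, 141, 154 and 116 in vehicle libraries. Every fusion protein library lay above every vehicle library, and replicate 1 stood far above the other five. The log2 difference was 1.18 ± 0.25 (SE; limma adjusted p = 0.00355), with means of 549 ± 387 (SD, n = 6) in fusion protein and 155 ± 34.0 (SD, n = 5) in vehicle libraries, a ratio of 3.54. Without replicate 1 the difference was 0.93 ± 0.13 (limma adjusted p = 7.93e-05), and without the 3 libraries that stand apart it was 1.34 ± 0.24 (limma adjusted p = 0.00349). The call held under all 32 alternative settings, with differences of 0.83 to 1.62.

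**Figure D1:**
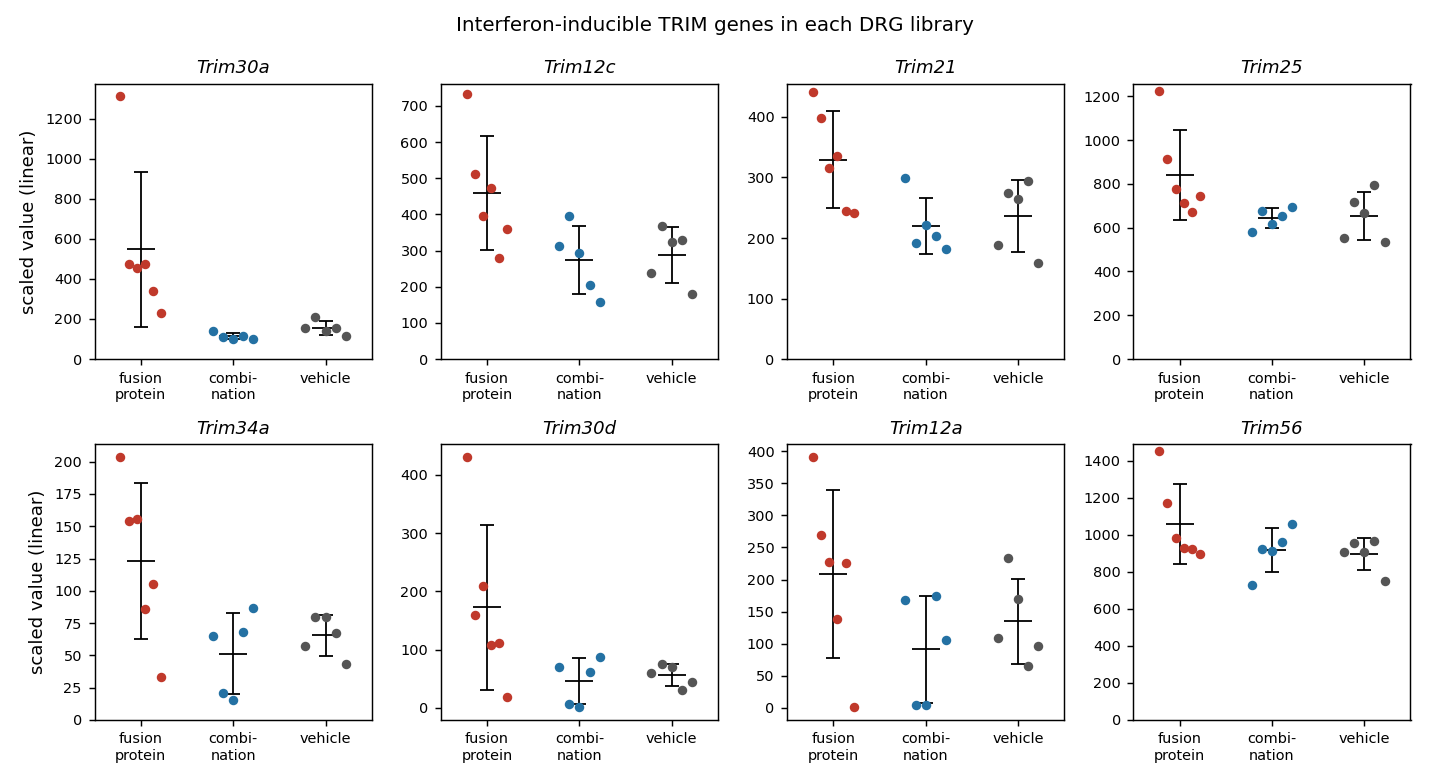
Scaled values (linear axes that include 0; not read counts) of 8 interferon-inducible TRIM genes in 6 fusion protein, 5 combination and 5 vehicle libraries, with each point a library, the long bar the group mean and the whiskers 1 SD. For Trim30a the fusion protein points, 231 to 1314, lie above all combination points, 101 to 139, and all vehicle points, 116 to 209, while in the other 7 genes the groups overlap.

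The other interferon-inducible members did not pass the test against vehicle. Trim21, the cytosolic antibody receptor that sends antibody-coated viruses to the proteasome (chromosome 7, 102557921 to 102565486, minus strand), had scaled values of 441, 398, 316, 336, 245 and 241 in fusion protein libraries, against 189, 275, 264, 295 and 159 in vehicle libraries. Its first 4 fusion protein libraries lay above the vehicle range and the last 2 within it (0.35 ± 0.13 SE, limma adjusted p = 0.0605). Trim25, the ligase that activates the RNA sensor RIG-I, ranged from 670 to 1223 (median 761 of 6) in fusion protein libraries and from 533 to 794 in vehicle libraries, with a difference of 0.30 ± 0.12 (limma adjusted p = 0.061). Trim12c, a mouse relative of the human retrovirus restriction factor TRIM5 (chromosome 7, 104338754 to 104353362, minus strand), had 733, 512, 397, 472, 280 and 359 in fusion protein libraries, against 237, 368, 324, 330 and 181 in vehicle libraries. Its groups overlapped (0.50 ± 0.20 SE, limma adjusted p = 0.0724). Trim56, a ligase of antiviral signalling, gave 0.20 ± 0.11 (limma adjusted p = 0.176). Trim14, an adaptor of mitochondrial antiviral signalling, and Trim26, a regulator of IRF3, were the members of this list with differences under 0, at -0.07 each (limma adjusted p = 0.537 and 0.442).

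For 3 genes of the chromosome 7 group the libraries that stand apart decide the spread. Trim34a, whose human counterpart restricts lentiviruses (104244457 to 104262234, plus strand), had scaled values of 204, 154, 156, 86, 105 and 33 in fusion protein libraries, against 57, 80, 80, 67 and 43 in vehicle libraries. The first 5 fusion protein libraries lay above every vehicle library and replicate 6 below them all. The difference was 0.41 ± 0.21 with all libraries (limma adjusted p = 0.166) and 0.56 ± 0.12 (limma adjusted p = 0.00475) without fusion protein replicate 6 and combination replicates 2 and 3. Trim30d, a copy next to Trim30a, had 431, 159, 209, 108, 112 and 18 in fusion protein libraries, against 60, 75, 71, 30 and 44 in vehicle libraries, with replicate 6 again below every vehicle library. Its difference was 0.69 ± 0.36 (limma adjusted p = 0.174) with all libraries and 0.93 ± 0.22 (limma adjusted p = 0.00988) without the same 3. Trim12a, the neighbour of Trim12c, had 391, 269, 228, 139, 225 and 1 in fusion protein libraries, against 109, 233, 170, 66 and 97 in vehicle libraries. It gave 0.21 ± 0.49 (limma adjusted p = 0.792) with all libraries and 0.59 ± 0.21 (limma adjusted p = 0.0606) without the 3.

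**Figure D2:**
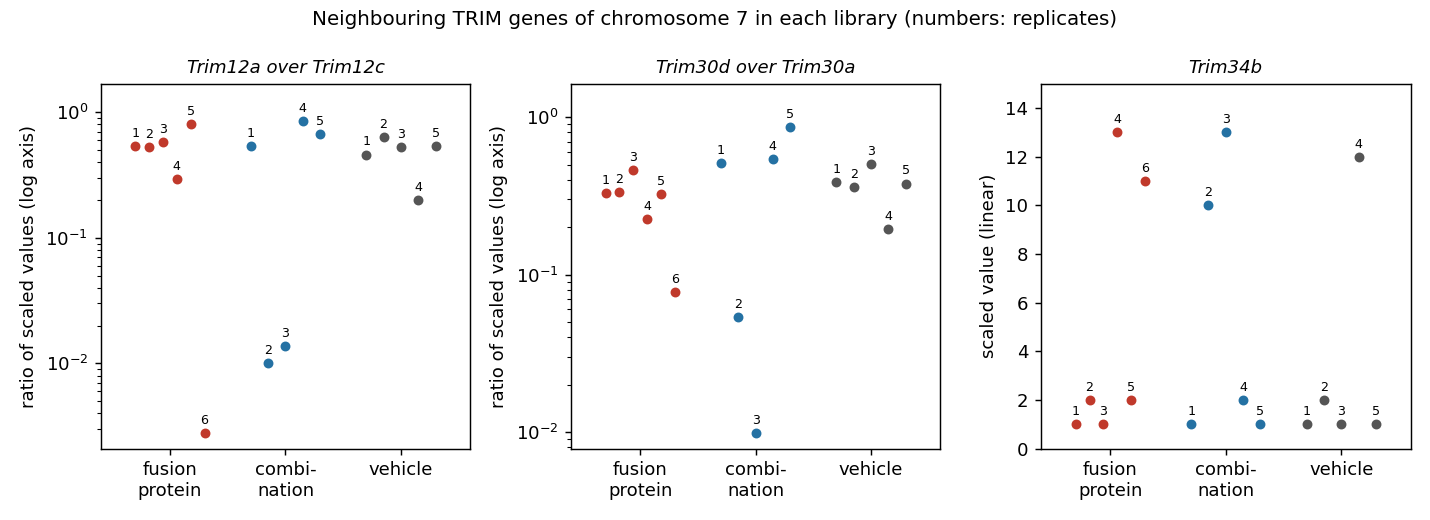
The ratio of the scaled values of Trim12a to Trim12c and of Trim30d to Trim30a (log axes) and the scaled value of Trim34b (linear axis) in each library, with the replicate number at each point. Fusion protein replicate 6 and combination replicates 2 and 3 have Trim12a to Trim12c ratios of 0.00279, 0.0101 and 0.0137, fusion protein replicate 4 and vehicle replicate 4 have 0.294 and 0.2, and the same 5 libraries are the ones with a Trim34b value of 10 to 13.

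The copies differ in how far their counts can be trusted. Among all 50-base stretches of its transcripts, Trim34b shared 56.8% with another gene, all with Trim34a, and Trim34a shared 39.8%, all with Trim34b. Trim5 shared 36.3% and Trim12c 33%, mostly with each other, and Trim12a shared 10.4%. For Trim30a the share was 5.98% and for Trim30d 7.49%. Reads from such stretches cannot be placed on one gene alone, so the values of Trim34a, Trim34b, Trim5 and Trim12c are uncertain. How the libraries that stand apart relate to these copies was not tested.

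Of the 6 interferon-inducible members under the filter, Trim30b, Trim30c and Trim5 had their highest values in fusion protein libraries. They were not tested, and their values are a description. Trim30b had scaled values of 176, 42, 38, 51, 43 and 26 in fusion protein, 13, 6, 9, 8 and 1 in combination and 18, 20, 18, 10 and 8 in vehicle libraries, with all fusion protein libraries above the rest. Trim30c had 36, 10, 11, 19, 7 and 18 in fusion protein, 5, 3, 4, 2 and 5 in combination and 5, 3, 2, 5 and 1 in vehicle libraries, again without overlap. Trim5 ranged from 10 to 39 in fusion protein, 2 to 19 in combination and 7 to 19 in vehicle libraries. Its lowest values were in libraries that stand apart: 10 in fusion protein replicate 6, and 2 and 2 in combination replicates 2 and 3. In combination replicates 1, 4 and 5 Trim5 was at 19, 19 and 16. The remaining members of these 6 stayed near the floor of the table: Trim38, which acts on the kinase adaptors TAB2 and TAB3, reached 13, Trim34b 13 and Trim69 7 in the highest library of any group.

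Per library, the median of the 10 tested interferon-inducible members, relative to the vehicle mean, was 0.87, 0.62, 0.35, 0.16, 0.05 and -0.00 in fusion protein replicates 1 to 6 and -0.09, 0.16, 0.09, 0.06 and -0.23 in vehicle replicates 1 to 5. The fusion protein libraries were unequal: replicates 1 to 3 lay above the highest vehicle library, replicate 4 was level with it, and replicates 5 and 6 lay within the vehicle range. The labels number fusion protein replicates 5 and 6 as 12 and 19 and vehicle replicate 5, the lowest vehicle library, as 18. The other libraries of these groups have numbers from 1 to 8, and the labels do not say what the number marks. Without Trim12a, Trim30d and Trim34a the 7 remaining members gave 0.26 ± 0.26 (SD, n = 6) in fusion protein libraries.

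Macrophage markers moved in the same direction. The 8 listed and tested were Aif1, Cd68, Csf1r, Cx3cr1, Adgre1, Itgam, C1qa and Ptprc. Of these, 5 rose with the fusion protein against vehicle and 0 fell (62.5%, beside 12% of all tested genes that rose and 13.7% that fell), with a median difference of 0.45. The 5 were Aif1, Cd68, Csf1r, Itgam and Ptprc. Itgam and Ptprc had the largest differences of the list, 1.20 and 1.01. Their means were 851.3 and 768.7 in fusion protein libraries, against 271.8 and 315.6 in vehicle libraries. Cx3cr1, C1qa and Adgre1 were not called (Adgre1 0.23 ± 0.14 SE, limma adjusted p = 0.23). Which cells carried these genes was not tested. The summed scaled values of the 8 were 5321, 1785, 3048, 2634, 2664 and 2698 in fusion protein libraries, against 2052, 1609, 1795, 1179 and 1242 in vehicle libraries, and none of the 8 was near 0. Replicate 1 was the highest for both these markers and Trim30a. In 5 of the 6 fusion protein libraries the marker sum lay above the vehicle range, as Trim30a did in all 6. Replicate 2 had a marker sum within the vehicle range and a Trim30a value of 476, where the highest vehicle library had 209. The part of macrophages in the Trim30a result was not tested. Neutrophil markers gave 0 calls among 6 tested and lymphocyte markers 0 among 3, beside 25.8% of all tested genes.

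Against vehicle, the members that fell with the fusion protein were led by COS-box genes of neurons. Trim67 (chromosome 8, 124793092 to 124834713, plus strand), which works with the netrin receptor DCC in axon growth, had scaled values of 1258, 1411, 1102, 1047, 1166 and 1125 in fusion protein libraries, against 1736, 1868, 1818, 2150 and 1676 in vehicle libraries. No library overlapped, and the log2 difference was -0.59 ± 0.08 (SE; limma adjusted p = 6.61e-05). Trim9 (chromosome 12, 70244533 to 70347614, minus strand), its close relative at axon branches and synapses, had 715, 743, 536, 533, 554 and 548 in fusion protein libraries, against 771, 869, 768, 904 and 808 in vehicle libraries. All fusion protein libraries were lower, by -0.39 ± 0.08 (limma adjusted p = 0.00143). Neither call was lost on leaving out any single library, and both were lost among only the samples numbered 12 to 19, which hold 1 vehicle library. That of Trim9 was also lost on leaving out the 5 libraries that stand apart or in between (-0.30, limma adjusted p = 0.0525). Of the 7 neuron markers 0 rose and 1 fell (14.3%, beside 25.8% of all tested genes), and 6 had differences above 0. The decrease was that of Rbfox3 (-0.38 ± 0.09 SE, limma adjusted p = 0.00466). How neuron markers relate to these decreases was not tested.

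Trim8 (chromosome 19, 46501702 to 46516848, plus strand), a regulator of NF-kB and cytokine signalling, had 397, 399, 342, 410, 390 and 351 in fusion protein libraries, against 573, 483, 423, 461 and 445 in vehicle libraries. The groups did not overlap (-0.25 ± 0.07 SE, limma adjusted p = 0.0165). Trim33, a PHD-bromodomain ligase that limits TGF-beta signalling through SMAD4, fell by 0.28 on the log2 scale (SE 0.10, limma adjusted p = 0.0391), with 705 to 1027 in fusion protein and 889 to 1172 in vehicle libraries, which overlap. Trim65, a ligase of the RNA sensor MDA5, had 40 to 57 in fusion protein and 65 to 88 in vehicle libraries (-0.22 ± 0.07 SE, limma adjusted p = 0.0181). Trim7, a ligase that binds glycogenin, had 46 to 59 in fusion protein and 61 to 78 in vehicle libraries (-0.18 ± 0.07 SE, limma adjusted p = 0.0487). The call of Trim33 was lost in 13 of 32 alternative settings, that of Trim7 in 22 of 31, that of Trim8 in 5 of 32 and that of Trim65 in 6 of 31. Trim65 gave -0.19 (limma adjusted p = 0.0566) without vehicle replicate 4 and -0.0978 (limma adjusted p = 0.364) with trends of GC content and exonic length taken out. Without overlap, 6 of the 32 other members were lower (18.8%) and 0 higher, beside 6.57% and 7.76% of all tested genes. Trim65 and Trim47 overlap on the same strand of chromosome 11 and share 3.05% and 6.58% of their 50-base stretches.

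**Figure D3:**
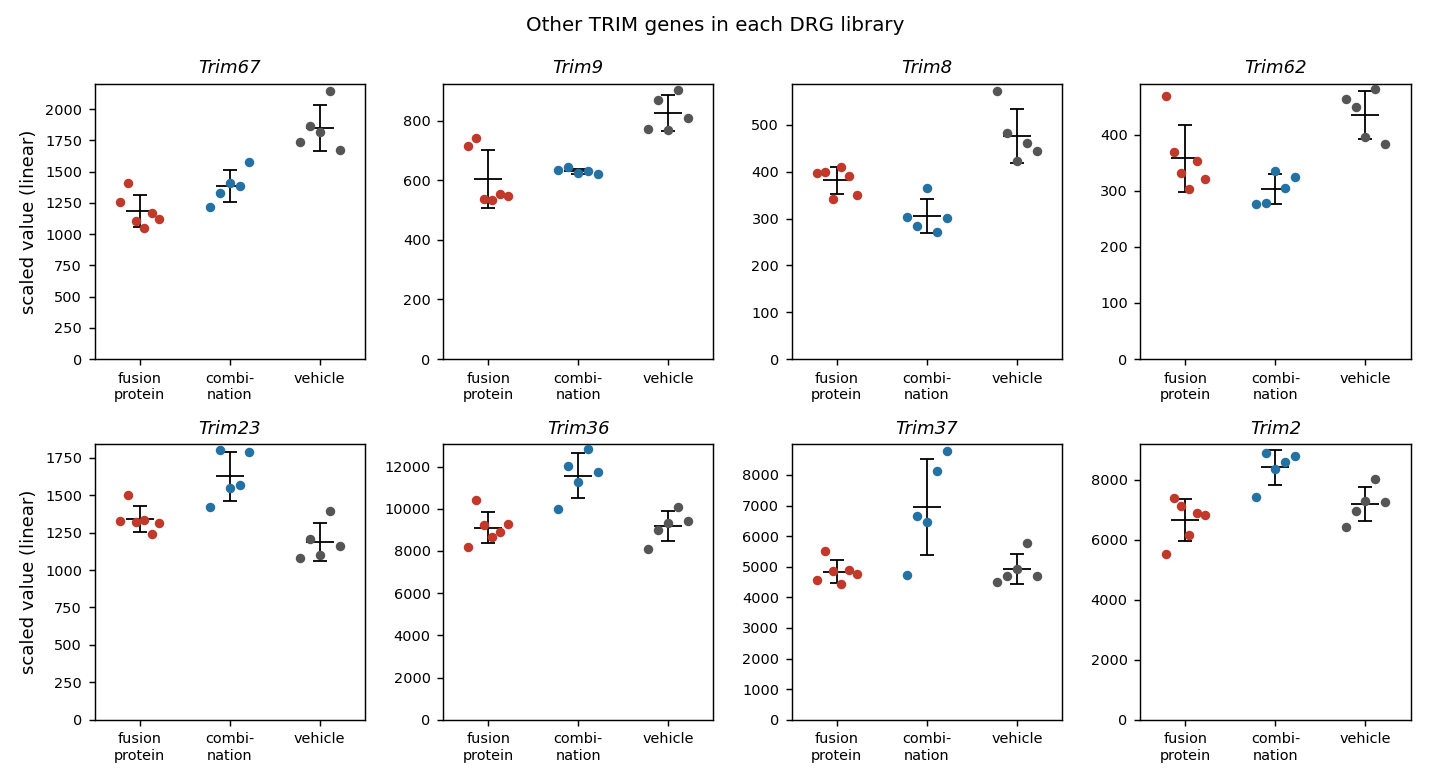
Scaled values (linear axis from 0) of 8 other TRIM genes in 6 fusion protein, 5 combination and 5 vehicle libraries, with points for libraries, a long bar for the mean and whiskers of 1 SD. Trim67, Trim9 and Trim8 are lower in every fusion protein and combination library than in any vehicle library, and Trim23 is higher in every combination library than in any vehicle library, at 1422 to 1802 against 1077 to 1393.

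The combination was then set against the same vehicle libraries as the fusion protein. Of the 42 tested members 6 rose and 8 fell, 33.3% in all, beside 24.2% of all tested genes that rose and 12.3% that fell (36.5% in all). The interferon-inducible members had 0 increases and 1 decrease among 10, with a median of -0.15 and 1 difference above 0. The 32 other members had 6 increases and 7 decreases, with a median of 0.01 and 16 differences above 0, while the median of all tested genes was 0.06.

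No interferon-inducible member was raised. Trim30a had scaled values of 139, 112, 102, 115 and 101 in combination libraries, against 155, 209, 141, 154 and 116 in vehicle libraries, which overlap (-0.25 ± 0.26 SE, limma adjusted p = 0.479; interval -0.81 to 0.31), and without the 3 libraries that stand apart it gave -0.22 (limma adjusted p = 0.602). Trim21 gave -0.07 ± 0.14 (limma adjusted p = 0.743), with 299, 192, 221, 204 and 182 in combination libraries. Trim14 was the single decrease, with 40 to 69 in combination and 72 to 88 in vehicle libraries (-0.20 ± 0.08 SE, limma adjusted p = 0.048), and 21 of 30 alternative settings ended this call. In combination replicates 2 and 3, the libraries that stand apart, Trim12a was at 4 and 4, Trim30d at 6 and 1 and Trim34a at 21 and 15, below every vehicle library. Without those 2 libraries and fusion protein replicate 6 the differences were 0.12 for Trim12a, 0.19 for Trim30d and 0.08 for Trim34a, in place of -0.54, -0.28 and -0.21 with all libraries. None of these passed the test either way (limma adjusted p = 0.442, 0.596 and 0.488 with all libraries).

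Trim8 fell most clearly with the combination. Its scaled values were 304, 285, 366, 272 and 302 in combination libraries, against 573, 483, 423, 461 and 445 in vehicle libraries, without overlap (-0.50 ± 0.08 SE, limma adjusted p = 9.7e-05). Trim67 had 1220, 1329, 1406, 1389 and 1577 in combination libraries, each below the lowest vehicle library of 1676 (-0.39 ± 0.08, limma adjusted p = 0.00148). Trim9 had 633, 643, 623, 631 and 620, all below the lowest vehicle library of 768 (-0.33 ± 0.08, limma adjusted p = 0.00385). Trim62, a ligase linked to epithelial polarity, had 277 to 336 in combination and 383 to 481 in vehicle libraries (-0.39 ± 0.08, limma adjusted p = 0.00151). Trim47, described in astrocytoma, had 15 to 32 in combination and 39 to 53 in vehicle libraries (-0.35 ± 0.08, limma adjusted p = 0.00273). Its combination mean of 24.2 lay under the scaled value of the filter, 31.8. Trim47 was thus tested only through its fusion protein and vehicle libraries, and this call is a description. Trim11, a ligase active in neural development, had 164 to 238 in combination and 235 to 305 in vehicle libraries (-0.29 ± 0.08, limma adjusted p = 0.01). Trim46, which bundles microtubules at the axon initial segment and was named after its values were seen, completed the 8 decreases (-0.36 ± 0.11, limma adjusted p = 0.0129). Taking out trends of GC content and exonic length left 3 decreases: Trim8, Trim9 and Trim47. The calls of Trim67, Trim62 and Trim11 were lost, with differences of -0.16, -0.16 and -0.0744 (limma adjusted p = 0.181, 0.266 and 0.539). The late sample numbers of the labels were carried by all 5 combination and 1 of 5 vehicle samples. With these numbers in that model as well, Trim67, Trim62 and Trim11 gave -0.0456, 0.0108 and -0.0511. The calls of Trim8, Trim9 and Trim47 were lost there too, so the 1 decrease left was of another member.

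Among the increases, Trim23, a ligase that carries an ARF GTPase domain (chromosome 13, 104178797 to 104203372, plus strand), had 1422, 1802, 1549, 1570 and 1789 in combination libraries, against 1077, 1209, 1099, 1393 and 1162 in vehicle libraries. Every combination library was higher (0.42 ± 0.08 SE, limma adjusted p = 0.00045). Trim37 had 4740 to 8781 (median 6653) in combination and 4516 to 5776 (median 4708) in vehicle libraries, and the groups overlapped (0.46 ± 0.12, limma adjusted p = 0.006). Trim36 had 9979 to 12816 in combination and 8100 to 10095 in vehicle libraries (0.33 ± 0.08, limma adjusted p = 0.00373). The calls of Trim23, Trim37 and Trim36 were lost in 2, 3 and 3 of 31 alternative settings. All were lost with the GC and length trends taken out and the late label number in the model. Trim13, a ligase of the endoplasmic reticulum membrane, had 191 to 301 in combination and 157 to 224 in vehicle libraries (0.32 ± 0.08, limma adjusted p = 0.00616), and 0.0636 (limma adjusted p = 0.602) with the GC and length trends taken out. Trim2, an NHL ligase of neurofilament light chain in axons, had 7431 to 8891 in combination and 6424 to 8024 in vehicle libraries (0.22 ± 0.08, limma adjusted p = 0.0409), and 15 of 31 alternative settings ended this call. Trim59, named after its values were seen, was the remaining increase (0.35 ± 0.12, limma adjusted p = 0.0263). Its vehicle mean of 29.6 lay under the scaled value of the filter, 31.8. Trim59 was thus tested only through the treated groups, and its call is a description.

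Without overlap, 2 of the 32 other members were higher with the combination and 5 lower (6.25% and 15.6%), beside 15.1% and 7.91% of all tested genes. Macrophage markers gave 0 calls among 8, beside 36.5% of all tested genes, with summed scaled values of 1324 to 1872 in combination and 1179 to 2052 in vehicle libraries. The labels number all combination samples from 13 to 17, while 4 of the 5 vehicle samples have numbers up to 4, and the labels do not say what the number marks. With the later numbers as a covariate 4 members rose and 7 fell, and the interferon-inducible median was 0.23 in place of -0.15, so the sign of that median depends on this choice.

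The third comparison sets the fusion protein directly against the combination. Of the 42 tested members 6 rose and 9 fell, 35.7% in all, beside 7.35% of all tested genes that rose and 22.2% that fell (29.5% in all). All 10 interferon-inducible members had differences above 0, with 4 increases and a median of 0.49, while the 32 other members had 2 increases, 9 decreases, a median of -0.11 and 10 differences above 0. The median of all tested genes was -0.09. Without fusion protein replicate 4, combination replicate 2 or combination replicate 4 the count of increases was 3, and without all 3 libraries that stand apart it was 1, with 0 decreases, where 2.66% of all genes were called. The combination samples all carry late label numbers, and with those numbers as a covariate the interferon-inducible median was 0.1466. Among only the samples numbered 12 to 19 it was 0.1140, and in either case 2 members rose.

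Trim30a had 1314, 476, 455, 476, 342 and 231 in fusion protein libraries, against 139, 112, 102, 115 and 101 in combination libraries, without overlap. Its difference was 1.43 ± 0.25 (SE; limma adjusted p = 0.00349), a ratio of 4.82, and it was called in 30 of 31 alternative settings. Trim34a had 204, 154, 156, 86, 105 and 33 in fusion protein libraries, against 65, 21, 15, 68 and 87 in combination libraries, with overlap (0.61 ± 0.21, limma adjusted p = 0.0388). Trim12c had 280 to 733 in fusion protein and 158 to 396 in combination libraries (0.56 ± 0.20, limma adjusted p = 0.0404). Trim21 had 241 to 441 in fusion protein and 182 to 299 in combination libraries (0.41 ± 0.13, limma adjusted p = 0.0279). The calls of these last 3 were lost in 15 of 30, 15 of 31 and 10 of 31 alternative settings. With the 3 libraries that stand apart left out, Trim30a gave 1.56 ± 0.28 (limma adjusted p = 0.0253), and Trim34a, Trim12c and Trim21 gave 0.48, 0.79 and 0.44 (limma adjusted p = 0.0641, 0.069 and 0.104). Trim30d gave 0.97 ± 0.36 (limma adjusted p = 0.0548) with all libraries and 0.74 ± 0.25 (limma adjusted p = 0.0908) without those 3. Trim12a gave 0.75 ± 0.49 (limma adjusted p = 0.254) with all libraries and 0.47 ± 0.24 (limma adjusted p = 0.217) without them. Trim25 gave 0.31 ± 0.12 (limma adjusted p = 0.0514) with all libraries.

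Among the other members, Trim47 had 31 to 66 in fusion protein and 15 to 32 in combination libraries (0.29 ± 0.08 SE, limma adjusted p = 0.014). Its combination mean lay under the filter, so this call is a description, and 7 of 30 alternative settings ended it. Trim8 had 342 to 410 in fusion protein and 272 to 366 in combination libraries (0.24 ± 0.07, limma adjusted p = 0.0209). The difference of Trim8 was 0.0689 (limma adjusted p = 0.508) with the GC and length trends taken out and -0.0482 with the late label numbers in that model too. The 9 decreases included the 3 members that were highest per kilobase, Trim36, Trim44 and Trim37. Trim37 had 4435 to 5527 in fusion protein and 4740 to 8781 in combination libraries (-0.48 ± 0.12, limma adjusted p = 0.00891). Trim44 had 3774 to 5107 and 4475 to 5921 in the same order of groups (-0.35 ± 0.10, limma adjusted p = 0.0145). Trim36 had 8203 to 10401 in fusion protein and 9979 to 12816 in combination libraries (-0.34 ± 0.08, limma adjusted p = 0.00717). Trim2 had 5511 to 7398 in fusion protein and 7431 to 8891 in combination libraries, without overlap (-0.34 ± 0.08, limma adjusted p = 0.00828). Trim7 also did not overlap, with 46 to 59 in fusion protein and 63 to 102 in combination libraries (-0.25 ± 0.07, limma adjusted p = 0.0133). Trim33, Trim23 and Trim13 gave -0.35, -0.26 and -0.22 (limma adjusted p = 0.0148, 0.0182 and 0.0433), and Trim66, named after its values were seen, -0.16 (limma adjusted p = 0.0473). Trim67 and Trim9, which fell in both comparisons with vehicle, gave -0.21 ± 0.08 (limma adjusted p = 0.0566) and -0.06 ± 0.08 (limma adjusted p = 0.565) here, with 95% intervals of -0.37 to -0.04 and -0.22 to 0.10.

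**Figure D4:**
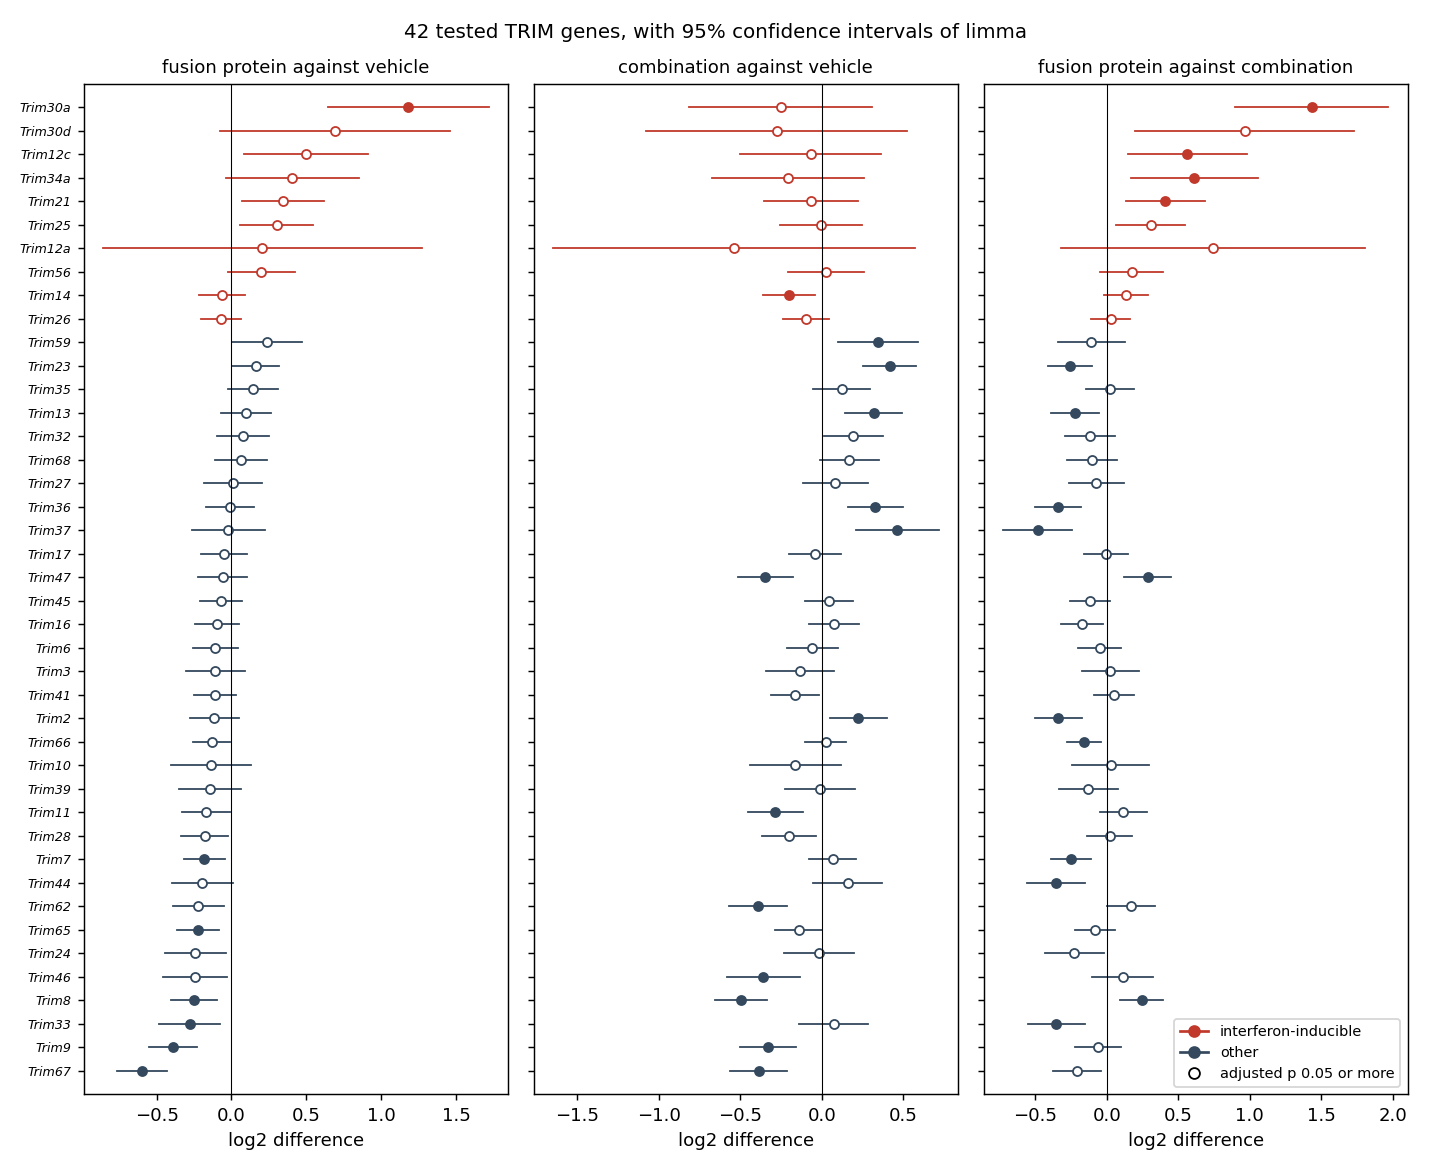
Log2 differences of the 42 tested TRIM genes (rows) in the 3 comparisons (panels), with 95% confidence intervals of limma, interferon-inducible members in red above the others in blue and filled points for an adjusted p under 0.05. All 10 interferon-inducible points lie above 0 for the fusion protein against the combination and 8 of 10 for the fusion protein against vehicle, while 1 of 10 does for the combination against vehicle.

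Grouped by the C-terminal domain, the 4 tested COS-box members were Trim36, Trim67, Trim9 and Trim46. They had 0 increases and 2 decreases with the fusion protein against vehicle (50%), 1 and 3 with the combination against vehicle (100%), and 0 and 1 between the treatments (25%), beside 25.8%, 36.5% and 29.5% of all tested genes. The 22 tested PRY-SPRY members had 1 increase and 2 decreases with the fusion protein against vehicle (13.6%, median -0.06), 0 and 3 with the combination against vehicle (13.6%, median -0.08), and 4 and 1 between the treatments (22.7%, median 0.04), under those same shares of all genes. The 4 PHD-bromodomain members fell in 1, 0 and 2 cases in the same order of comparisons (25%, 0% and 50%), with 0 increases. The 3 tested NHL members had 0 calls with the fusion protein against vehicle, 1 increase with the combination against vehicle and 1 decrease between the treatments, each of them Trim2 (0%, 33.3% and 33.3%). Both transmembrane members, Trim13 and Trim59, rose with the combination against vehicle (100%), and 1 of them fell with the fusion protein against the combination (50%). The increase of Trim59, tested only through the treated groups, is a description.

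Genes that signal beside these members were counted from lists of their own. Of 21 tested genes of interferon signalling and of the RIG-I pathway, 9 rose and 1 fell with the fusion protein against vehicle (median 0.18), 3 rose and 1 fell with the combination against vehicle (median -0.06), and 10 rose and 1 fell between the treatments (median 0.17). These are 47.6%, 19% and 52.4% called, beside 25.8%, 36.5% and 29.5% of all tested genes. Ddx58, which encodes RIG-I, the target of TRIM25, gave 0.64 ± 0.14 with the fusion protein against vehicle (limma adjusted p = 0.00306), with means of 1800 in fusion protein and 1102 in vehicle libraries. Ifih1, which encodes MDA5, the target of TRIM65, gave 0.80 ± 0.12 (limma adjusted p = 0.000248), with 606 and 298 in the same groups, while Trim65 itself was lower. Tyk2, a kinase of the interferon receptor, was the single decrease (-0.24 ± 0.07, limma adjusted p = 0.0136). The receptor genes Ifnar1 and Ifnar2 gave 0.09 and 0.08 (limma adjusted p = 0.385 and 0.58).

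The lists also held 4 further members of the family under other symbols. Mefv, which encodes pyrin, an inflammasome sensor of myeloid cells, had means of 162.5 in fusion protein, 21.8 in combination and 16.4 in vehicle libraries. It rose against vehicle by 1.27 ± 0.22 (limma adjusted p = 0.000952) and against the combination by 1.16 ± 0.22 (limma adjusted p = 0.00489). Its combination and vehicle means lay under the scaled value of the filter, 31.8, so Mefv was tested only through its fusion protein libraries. Both calls are therefore a description. Pml, the scaffold of nuclear bodies and itself interferon-inducible, had means of 254, 183 and 265 in the same order, lower with the combination than with vehicle (-0.37 ± 0.09, limma adjusted p = 0.00533) and higher with the fusion protein than with the combination (0.31 ± 0.09, limma adjusted p = 0.0178). Mid2, a microtubule-binding COS-box ligase, was lower with the fusion protein than with the combination (-0.38 ± 0.08, limma adjusted p = 0.00687), and its relative Mid1 passed in none of the 3 comparisons (lowest limma adjusted p = 0.0747). Of 12 partners of the chromatin silencer TRIM28, 1 rose and 2 fell with the fusion protein against vehicle, 4 rose and 0 fell with the combination against vehicle, and 0 rose and 2 fell between the treatments (25%, 33.3% and 16.7%, near or under the 25.8%, 36.5% and 29.5% of all genes). Trim28 itself, given because its partners were listed, had means of 741 in fusion protein, 729 in combination and 853 in vehicle libraries, and passed in none of the 3 comparisons (limma adjusted p = 0.0895 with the fusion protein against vehicle, 0.054 with the combination against vehicle and 0.838 between them).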

How the data were processed

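The deposited table of the authors holds variance-stabilised log2 values of 36722 genes in 16 libraries. Per the submitters' processing notes, FastQC, STAR, HTSeq and DESeq2 were used with build GRCm38; versions and settings are not given in the sources used here. From these values scaled whole numbers were decoded, with 100% whole within 0.01; the step that scaled the libraries is not stated and depth is unknown. Deposited p-values, GC percent and adjusted p-values per gene are also in the table, and the p-values were not used because their comparison is not named. All 16 libraries entered 1 model of 3 groups in limma 3.58.1 (R 4.3.3; eBayes with a trend and robust settings). Tests were two-sided, p-values were adjusted by the Benjamini-Hochberg method over 13385 genes, and an adjusted p under 0.05 was called; the code was tested on simulated data. Python 3.11.15 was used for the rest. Coordinates, exonic lengths and transcript sequences came from GENCODE M21 (GRCm38; 36345 genes matched), and promoter windows from RefSeq GRCm38.p6, which gave 66 windows for 52 of the 67 members. The members and lists were chosen with earlier results of these data known. Named with values are the interferon-inducible members, other members past the threshold (up to 10 by lowest p in each comparison) and the 3 members highest per kilobase. Further members are marked as named after their values were seen. Without that mark are Trim28 and members named only to describe the filter, the undetected genes or the muscle members.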

Additional observations from a re-analysis of the deposited data

Results flagged for a closer look

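Of 93 groups of libraries of the 31 named members, 6 held a library far from the others by Dixon's ratio. This is the gap to the nearest library over the range of the group, both taken on the log2 values and not on the scaled values printed here. Chance flags about 1 in 20 such groups. Trim12a was at a scaled value of 1 in fusion protein replicate 6, while the other 5 lay between 139 and 391 (ratio 0.635). Trim30b was at 176 in fusion protein replicate 1, and the others lay between 26 and 51 (ratio 0.730). Trim34b was at 12 in vehicle replicate 4, and the others were at 1 or 2 (ratio 0.831). Trim38 was at 4 in fusion protein replicate 4, and the others lay between 8 and 11 (ratio 0.631). Trim56 was at 751 in vehicle replicate 5, and the others lay between 905 and 965 (ratio 0.741). Trim65 was at 40 in fusion protein replicate 4, and the others lay between 53 and 57 (ratio 0.782). Trim12a and Trim34b belong to the chromosome 7 group in which whole libraries stand apart.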

How the results depend on the processing

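Over the named members and all alternatives, 227 values lost a call, 75 gained one, 2 called values reversed and 2025 kept their side of the threshold. Of 1306 alternative values whose main value was not called, 75 had the other sign. With GC content and exonic length trends taken out and the late label number in the model, chosen after seeing the data, Trim62 went to 0.0108 for the combination against vehicle and Trim8 to -0.0482 for the fusion protein against the combination. For members higher with the fusion protein than with vehicle (1), the count was 2 without a filter and with only the 2 groups compared, 3 with median centring, 4 with quantile normalization, array weights, the late label number or GC and length trends removed, 5 for samples numbered 1 to 8 and with GC and length and label number together; for those lower (6) it was 2 without a filter, 13 with array weights and 0 for samples numbered 12 to 19. For members higher with the combination than with vehicle (6), it was 3 without a filter, 0 for samples 12 to 19 and 1 with GC and length and label number; for those lower (8) it was 5, 1 and 1 in the same order and 3 with GC and length alone. For members higher with the fusion protein than with the combination (6), it was 1 without a filter, 2 with the label number and for samples 12 to 19, and 1 with GC and length and label number; for those lower (9) it was 0 without a filter, 4 with quantile normalization, 5 for samples 12 to 19 and 3 with GC and length and label number. The samples numbered 12 to 19 hold 1 vehicle library, and without a filter 11699 genes have 1 value in every library; other causes were not tested.

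Leaving out fusion protein 6 and combination 2 and 3, chosen after seeing the data, gave 3 members higher with the fusion protein than with vehicle, and 1 higher and 0 lower than with the combination, where 2.66% of all genes were then called. Leaving out fusion protein 4 and vehicle 4 as well gave 4 higher and 1 lower than vehicle, and 0 higher and 0 lower than the combination, where 0.59% of all genes were called. Leaving out 1 library at a time gave 1 to 4 higher and 3 to 7 lower for the fusion protein against vehicle, 4 to 7 and 7 to 9 for the combination against vehicle, and 3 to 8 and 6 to 11 between the treatments. For the fusion protein against vehicle, 4 were higher without vehicle replicate 4, fusion protein replicate 5 or fusion protein replicate 6, 2 were higher without combination replicate 1, and 3 were lower without vehicle replicate 4. Between the treatments 3 were higher without fusion protein replicate 4 or combination replicate 2 or 4. The interferon-inducible median then ranged from 0.24 to 0.47, from -0.20 to -0.09 and from 0.39 to 0.55 in the same comparisons, and the median of the others from -0.13 to -0.10, from -0.0206 to 0.0372 and from -0.14 to -0.0754.

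The interferon-inducible median for the combination against vehicle was 0.2328 with the label number. Between the treatments it was 0.1466 with the label number, 0.1140 for samples 12 to 19 and 0.2226 with GC and length and label number. The median of the others was 0.0583 for the combination against vehicle with the stricter filter, -0.0495 without a filter and -0.1682 on log2 of the decoded value plus 1 for the fusion protein against vehicle, and -0.0079 and -0.1558 between the treatments under those 2 settings.

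Correlations of same-numbered libraries ranged from -0.196 to 0.598, and those of replicate 2 were 0.453, 0.464 and 0.598. Libraries of different numbers were not correlated, so whether replicate numbers pair the samples was not tested. With the replicate block 5 members were higher with the fusion protein than with vehicle, in place of 1; the other counts stayed within 1.5 times. Depth is unknown, so no limit from counting could be set; members near a scaled value of 1 can show no decrease.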

Other observations

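The libraries that stand apart were compared with the rest over the whole table, after their values were seen. In 4 genes fusion protein replicate 6 and combination replicates 2 and 3 lay more than 2-fold outside the range of the other 13 libraries. Trim12a was at 1 to 4 in the 3 libraries and at 66 to 391 in the others. Myo7a, an unconventional myosin on chromosome 7 (98051060 to 98119524), was at 51 to 63 in the 3 and at 128 to 402 in the others. The transcript A230056P14Rik, also on chromosome 7 (55962531 to 55980868), was at 1 to 4 in the 3 and at 14 to 46 in the others. The pseudogene Mrpl48-ps on chromosome 4 was higher in the 3, at 60 to 91, than in the others, at 4 to 28. Within the chromosome 7 TRIM group, Trim12c, which lies between Trim34b and Trim30b, did not follow: it was at 359, 396 and 292 in these 3 libraries, within the range of the others. Trim34b was at 11, 10 and 13 in the 3, at 13 in fusion protein replicate 4 and 12 in vehicle replicate 4, and at 1 or 2 in the remaining 11 libraries. What sets these libraries apart was not tested.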
